A study of Mus musculus with 9 samples.

Results

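Levels of Ccr7 and of 8 further genes of the migratory dendritic cell (DC) program were taken from bulk RNA-seq of DCs sorted from mouse spleen. The members were the 9 genes Ccr7, Fscn1, Cacnb3, Mreg, Tmem123, Tbc1d4, Marcksl1, Anxa3 and Grasp, found by symbol among the 54532 genes listed. All 9 passed the filter on low values (3 or more of the 9 samples at 1 FPKM or above), as did 12746 genes in all, which are the genes tested below. FPKM is the number of reads on a gene divided by the length of the gene and by a size set for the library. The study compared DCs of normal mice with DCs of mice carrying T-cell acute lymphoblastic leukemia (T-ALL), a leukemia made in mice by a retrovirus carrying the active intracellular domain of Notch1 (ICN1) together with GFP. The N-mDC group (library names N_DC_hi) held mature conventional DCs (cDCs) of normal spleen. The T-mDC group (T_DC_hi) held mature cDCs of T-ALL spleen, and the T-DC group (T_DC_lo) held CD11c+MHCIIlo cells of T-ALL spleen, with 3 samples in each group. Leukemic mice had received GFP+ leukemia cells without irradiation and were killed at a late stage. Young adult female C57BL/6J or C57B6.SJL mice were used, and no group is labelled with a treatment. The cells were enriched with CD11c beads and the T-DC gate took those with little MHCII at the surface, so MHCII itself cannot be a finding between the groups.

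DCs that take up antigen in a tissue change program when they mature and move to T-cell areas. They express the chemokine receptor CCR7, which senses CCL19 and CCL21 made by stromal cells of lymphoid organs, and they rebuild their actin cytoskeleton into long dendrites with the bundling protein fascin. In spleen, DCs with this program move from the marginal zone and bridging channels into the T-cell zone of the white pulp.

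The members were chosen by their measured levels in these samples, selected on being low in T-DCs. The levels of T-DCs against N-mDCs and T-mDCs are therefore given as a description, with no test. The contrast of T-mDCs with N-mDCs was not used in the choice and is tested, although it shares the N-mDC and T-mDC samples with the contrasts that were used. Depth was similar throughout, with 15360815 to 18440913 reads on genes per sample. T-mDC samples 2 and 3 were far closer to each other than other samples of a group. Their chi-square per gene was 1.85, against at least 8.11 for the other pairs, and it was 6.88 per member, so they differed by more than counting noise and were kept as separate samples. The labels do not say whether samples came from separate mice. In T-DC samples 2 and 3, hemoglobin genes took 3.82% and 3.005% of the reads, against 0.0422% in T-DC sample 1 and at most 0.405% in the other groups.

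Ccr7 (ENSMUSG00000037944; chr11:99144196-99155077, minus strand, mm10; 3 exons) encodes the receptor that gives the program its direction. In N-mDC samples 1 to 3 its level was 867, 295 and 576 FPKM. In T-DC samples 1 to 3 it was 9.54, 24.6 and 1.60 FPKM, resting on 338, 755 and 48 reads. In T-mDC samples 1 to 3 it was 539, 899 and 923 FPKM. Every T-DC sample lay below every sample of the other groups, and the lowest N-mDC sample was still 12.0 times the highest T-DC sample. The means were 579.6 ± 286 FPKM in N-mDCs, 11.9 ± 11.7 in T-DCs and 787 ± 215 in T-mDCs (SD, n = 3). By mean level, Ccr7 stood at rank 74 of the 12746 genes in N-mDCs and rank 33 in T-mDCs, against rank 4755 in T-DCs. On the log2(FPKM + 1) scale the difference of T-DCs was -5.90 (SE 0.76) from N-mDCs and -6.43 (SE 0.76) from T-mDCs. In bulk RNA, fewer cells that express a gene and less RNA of it per cell cannot be told apart, which holds for every gene below. Of all members, Ccr7 varied most between the T-DC samples, with the highest 15.4 times the lowest.

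**Figure D1:**
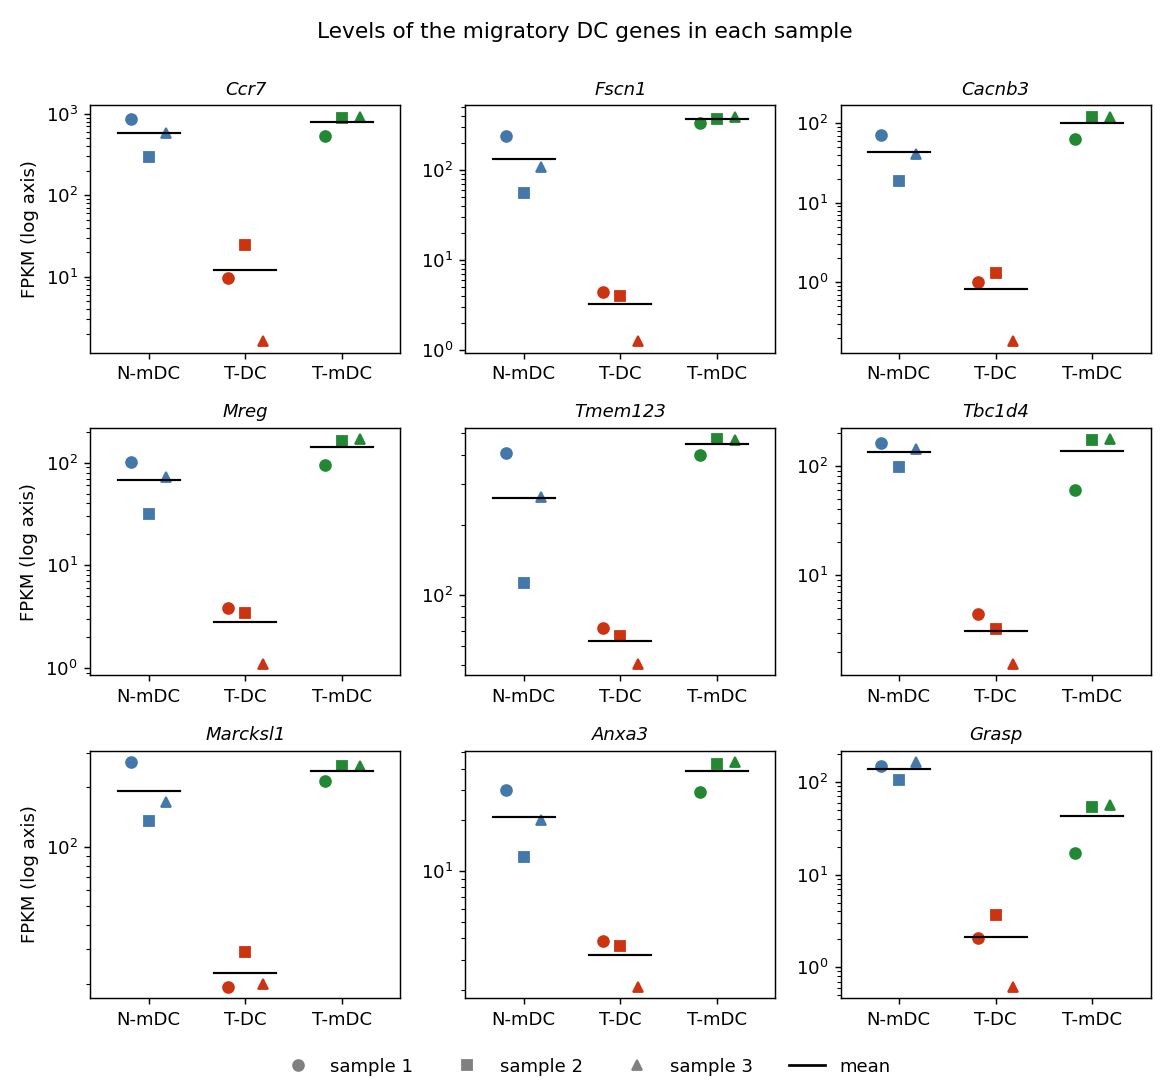
Level of each of the 9 genes in FPKM (log axis, each panel with its own range) in the 3 samples of each group, where each marker is 1 sample and the bar is the mean of the group. The T-DC samples sit below all samples of both other groups in every panel, and the gap is narrowest for Tmem123, at 72.4 FPKM in the highest T-DC sample and 113 FPKM in the lowest N-mDC sample.

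The plot of levels by sample shows the distance between T-DCs and mature DCs for each member and the spread within each group. The ligands of CCR7 were not detected in the sorted cells at this depth. No read was counted on Ccl19, Ccl21a, Ccl21b or Ccl21c in any sample, although near-identical Ccl21 copies can lose reads in counting. Ackr4, the atypical receptor that removes these ligands, reached at most 0.0404 FPKM. None of these 5 genes was tested.

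Fscn1 (ENSMUSG00000029581; chr5:142960343-142973185, plus strand; 5 exons in the first listed transcript) encodes fascin, which bundles actin filaments in the dendrites of mature DCs. It was at 241, 55.1 and 107 FPKM in N-mDC samples 1 to 3 and at 333, 373 and 392 FPKM in T-mDC samples 1 to 3. In T-DC samples 1 to 3 it was at 4.39, 3.98 and 1.25 FPKM. The T-DC samples were thus far below both other groups, and all T-mDC samples were above all N-mDC samples. The mean in T-mDCs was 114 times the mean in T-DCs, and the log2 difference of T-DCs was -4.85 (SE 0.52) from N-mDCs and -6.54 (SE 0.52) from T-mDCs. That last difference was the largest decrease among the 12746 genes.

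Marcksl1 (ENSMUSG00000047945; chr4:129513581-129515985, plus strand; 2 exons) encodes a MARCKS-related protein that binds actin and calmodulin at the plasma membrane. Its level was 269.5, 134.5 and 169 FPKM in N-mDC samples 1 to 3, and 216, 257 and 256 FPKM in T-mDC samples 1 to 3. In T-DC samples 1 to 3 it was 19.4, 29.1 and 20.1 FPKM, the tightest of the low levels after Tmem123. Marcksl1 remained well detected in T-DCs, with at least 489 reads in each sample, while its samples did not overlap with those of mature DCs. The log2 difference of T-DCs was -2.97 (SE 0.28) from N-mDCs and -3.37 (SE 0.28) from T-mDCs.

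Cacnb3 (ENSMUSG00000003352; chr15:98630840-98644529, plus strand; 12 exons in the first listed transcript) encodes a beta subunit of voltage-gated calcium channels. Its level was 70.7, 18.9 and 40.8 FPKM in N-mDC samples 1 to 3 and 62.5, 119 and 121 FPKM in T-mDC samples 1 to 3. In T-DC samples 1 to 3 it was 1.00, 1.32 and 0.181 FPKM, and the last value rested on 11 reads. Cacnb3 was the member closest to absent in T-DCs, at rank 11790 of 12746 by mean level. Its log2 difference was -4.47 (SE 0.48) from N-mDCs and -5.79 (SE 0.48) from T-mDCs, and adding 1 to each FPKM understates the fold of a gene this low.

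Mreg (ENSMUSG00000039395; chr1:72159442-72212307, minus strand; 5 exons) encodes melanoregulin, known for its part in the transport of melanosomes and lysosome-related organelles. It was at 100.3, 31.8 and 71.9 FPKM in N-mDC samples 1 to 3, at 3.81, 3.45 and 1.10 FPKM in T-DC samples 1 to 3 and at 94.5, 162 and 168 FPKM in T-mDC samples 1 to 3. The T-DC samples again lay below all others, by a log2 difference of -4.13 (SE 0.48) from N-mDCs and -5.28 (SE 0.48) from T-mDCs. Tbc1d4 (ENSMUSG00000033083; chr14:101442360-101609191, minus strand; 14 exons in the first listed transcript) encodes a Rab GTPase-activating protein that controls the delivery of membrane vesicles to the cell surface. It was at 162, 97.3 and 141 FPKM in N-mDC samples 1 to 3, at 4.43, 3.27 and 1.55 FPKM in T-DC samples 1 to 3 and at 60.4, 171 and 173 FPKM in T-mDC samples 1 to 3. T-mDC sample 1 stood apart from the other T-mDC samples for this gene, and the means of N-mDCs and T-mDCs, 133 and 135 FPKM, were nearly equal. The log2 difference of T-DCs was -5.08 (SE 0.45) from N-mDCs and -4.98 (SE 0.45) from T-mDCs.

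Tmem123 (ENSMUSG00000050912; chr9:7764041-7794333, plus strand; 5 exons in the first listed transcript) encodes a mucin-like membrane protein also called porimin. Its level was 407, 113 and 265 FPKM in N-mDC samples 1 to 3 and 401, 468 and 467 FPKM in T-mDC samples 1 to 3. T-DC samples 1 to 3 were at 72.4, 66.9 and 50.4 FPKM, so Tmem123 remained the member most abundant in T-DCs and had the smallest log2 differences, -1.87 (SE 0.41) from N-mDCs and -2.81 (SE 0.41) from T-mDCs. Anxa3 (ENSMUSG00000029484; chr5:96793339-96845966, plus strand; 13 exons in the first listed transcript) encodes an annexin, a protein that binds membrane phospholipids in the presence of calcium. It was the least abundant member in mature DCs of normal mice, at 30.1, 12.0 and 20.0 FPKM in N-mDC samples 1 to 3. It was at 3.86, 3.63 and 2.08 FPKM in T-DC samples 1 to 3 and at 29.2, 42.7 and 43.8 FPKM in T-mDC samples 1 to 3, which gave log2 differences of -2.31 (SE 0.34) and -3.25 (SE 0.34).

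Grasp (ENSMUSG00000000531; chr15:101224188-101232756, plus strand; 8 exons) encodes a scaffold protein that links membrane receptors to the vesicle sorting machinery. It was at 149, 104 and 165 FPKM in N-mDC samples 1 to 3 and at 17.3, 53.4 and 56.8 FPKM in T-mDC samples 1 to 3. In T-DC samples 1 to 3 it was at 2.06, 3.68 and 0.616 FPKM. Like Fscn1, Grasp had 3 levels that did not overlap, but with the mature DCs in the opposite order, T-mDCs lying between T-DCs and N-mDCs. The log2 difference of T-DCs was -5.60 (SE 0.51) from N-mDCs and -3.76 (SE 0.51) from T-mDCs. Its start overlaps the antisense gene A330009N23Rik, which reached at most 10.4 FPKM, and whether reads were counted by strand is not given in the sources used here.

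Sequences before RefSeq start sites of the members were searched for short motifs, since the 9 genes were low together. Windows of 250 bases before a start site (GRCm38.p6) were at hand for 7 of the 9 members, in 10 windows. The Cacnb3 windows end at start sites 1488 and 3927 bases inside the gene, counted from its start in the deposited values. The Mreg windows overlap each other, as do the Tmem123 windows, so the 10 are not separate promoters. The cAMP response element TGACGTCA, searched on both strands, was found upstream of Fscn1, from 45 to 38 bases before the start site, and in 1.55% of the 32851 windows of all genes. A kB site, the binding motif of the NF-kB family, was found upstream of Grasp, from 104 to 95 bases before the start site, and in 3.90% of all windows. The letters TATAAA of the TATA box were found in 12.4% of all windows. They were upstream of Fscn1 from 31 to 26 bases before the start site. In the Grasp window they were from 230 to 225 and from 12 to 7 bases before the start site. The AP-1 element TGANTCA, the E-box CACGTG and the core of the interferon-stimulated response element were in none of the members' windows and in 6.75%, 6.02% and 2.98% of all windows. The Fscn1 and Grasp windows are printed because they hold these motifs, with the cAMP response element of Fscn1 and the kB site of Grasp in capitals. The Fscn1 window is chr5:142960105-142960354 and the Grasp window is chr15:101223957-101224206, both on the plus strand.
Fscn1: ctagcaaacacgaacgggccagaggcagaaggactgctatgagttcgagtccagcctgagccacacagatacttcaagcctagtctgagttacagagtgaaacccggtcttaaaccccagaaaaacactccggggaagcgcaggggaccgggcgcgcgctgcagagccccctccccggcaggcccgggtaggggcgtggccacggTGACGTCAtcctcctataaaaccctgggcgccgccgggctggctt
Grasp: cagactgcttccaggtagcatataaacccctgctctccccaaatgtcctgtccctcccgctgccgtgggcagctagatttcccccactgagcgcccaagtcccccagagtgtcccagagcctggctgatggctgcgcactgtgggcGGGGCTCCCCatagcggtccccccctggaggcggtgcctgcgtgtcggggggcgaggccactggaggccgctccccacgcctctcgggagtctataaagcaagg
A match describes the letters of a window and is not evidence that a factor binds there.

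For all 9 members every T-DC sample was below every N-mDC and every T-mDC sample. Samples of T-DCs were below all N-mDC samples for 16.4% of the genes tested and below all T-mDC samples for 18.1%, and above them all for 16% and 16.8%. Since the members were picked for being low in T-DCs, nothing is read from this count. The median log2 difference over the members was -4.47 from N-mDCs, where the median of all genes tested was 0.05, and -4.98 from T-mDCs, where it was 0.07. From the largest decrease against N-mDCs, Ccr7 ranked 3, Grasp 5, Tbc1d4 10, Fscn1 12, Cacnb3 24, Mreg 33, Marcksl1 101, Anxa3 240 and Tmem123 430. Against T-mDCs, Fscn1 ranked 1, Ccr7 2, Cacnb3 4, Mreg 5, Tbc1d4 8, Grasp 26, Marcksl1 49, Anxa3 61 and Tmem123 130. Both comparisons use the same T-DC samples.

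Mature cDCs of leukemic spleen were then compared with those of normal spleen, the comparison that played no part in choosing the genes. None of the 9 members passed the test (0 of 9, limma with Benjamini-Hochberg adjustment over all 12746 genes), where 2.21% of all genes did. At an unadjusted p under 0.05 there were 6 of the 9 members and 16.7% of all genes. Fscn1 was 1.69 higher in T-mDCs on the log2 scale (SE 0.52, 95% confidence interval 0.51 to 2.87, limma adjusted p = 0.145), with every T-mDC sample above every N-mDC sample. Grasp was the member furthest the other way, with a difference of -1.84 (SE 0.51, interval -3.004 to -0.67, limma adjusted p = 0.117) and every T-mDC sample below every N-mDC sample. T-mDC samples were all above N-mDC samples for 19.3% of the genes tested and all below for 15.7%. The differences of Cacnb3 (1.32, limma adjusted p = 0.218), Mreg (1.15, limma adjusted p = 0.272), Tmem123 (0.95, limma adjusted p = 0.297) and Anxa3 (0.93, limma adjusted p = 0.213) had intervals above 0 before adjustment but groups that overlapped. For Ccr7 the difference was 0.53 (SE 0.76, interval -1.19 to 2.25, limma adjusted p = 0.767), for Marcksl1 0.40 (limma adjusted p = 0.507) and for Tbc1d4 -0.10 (limma adjusted p = 0.935). The interval of Ccr7 spans both a lower and a higher level in T-mDCs, and its SE comes from a fit of all 9 samples, the widely spread T-DC samples included. Where samples were weighted by their estimated quality, 5 members passed (Anxa3, Cacnb3, Fscn1, Grasp and Mreg), but so did 30.1% of all genes, in a fit that gave T-DC sample 2 a weight of 46.6 and each other sample at most 3.28.

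**Figure D2:**
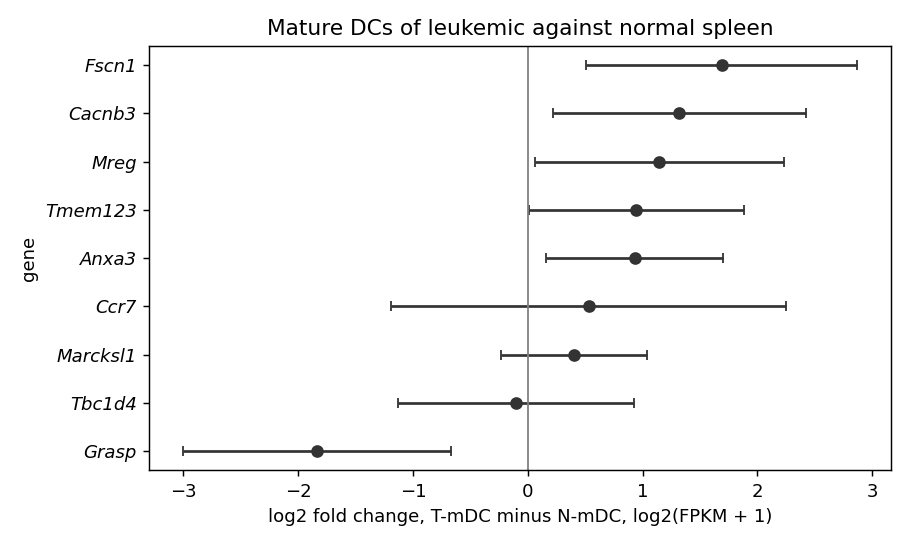
Log2 fold change of T-mDCs against N-mDCs for each member, on the log2(FPKM + 1) scale, as the estimate (point) with its 95% confidence interval before adjustment (bar). Fscn1 lies furthest above 0 and Grasp furthest below 0, at 1.69 and -1.84, and the intervals of Ccr7, Marcksl1 and Tbc1d4 cross 0.

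The plot of these fold changes sets the members side by side in order. Fscn1 and Grasp, which both stood near the top of the decreases in T-DCs, lay at opposite ends of it.

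T-DCs were also low in genes that mark the DC lineage itself, so the members were set against those markers. Flt3, the growth factor receptor of DCs, was at 4.48 to 15.4 FPKM in T-DCs, against 44.4 to 78.8 FPKM in N-mDCs and 62.9 to 89.1 FPKM in T-mDCs. It fell in T-DCs by 2.76 on the log2 scale against N-mDCs (limma adjusted p = 0.00375) and by 3.21 against T-mDCs (limma adjusted p = 0.00256). Zbtb46, Kmo and Dpp4 fell in both comparisons too. Itgax, which encodes CD11c, the protein used for enrichment, was at 42.97 to 152 FPKM in T-DCs, against 158 to 230.2 FPKM in N-mDCs and 159 to 167 FPKM in T-mDCs (differences of -1.09 and -0.96, limma adjusted p = 0.0926 and 0.149). Summed over the 5 markers, T-DCs had 60.7 to 194 FPKM, N-mDCs 273 to 425 FPKM and T-mDCs 318 to 405 FPKM, and no marker was at 0.

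Divided by the level of Flt3 in the same sample, Ccr7 was at 11.01, 6.65 and 10.6 in N-mDC samples 1 to 3 and at 8.58, 10.4 and 10.4 in T-mDC samples 1 to 3. In T-DC samples 1 to 3 the ratio was 0.620, 4.03 and 0.357. T-DCs thus stayed below both groups, but the ratio of the means was 5.65 for N-mDCs where that of the levels was 48.6. Fscn1, Cacnb3, Mreg and Tbc1d4 also stayed below both groups in every T-DC sample when divided by Flt3. Of all genes tested, 1.17% stayed below all N-mDC samples after this division and 0.918% below all T-mDC samples. The members were picked on the same levels, so nothing is read from these counts. Grasp stayed below N-mDCs but overlapped with T-mDCs. Tmem123, Marcksl1 and Anxa3 overlapped with both groups, and in T-DC samples 2 and 3 the ratio of Tmem123, 10.9 and 11.2, was above all mature DC samples. Divided by Itgax instead, 8 members stayed below N-mDCs (Tmem123 overlapped) and all 9 stayed below T-mDCs, as did 5.77% and 6.45% of all genes. Divided by Zbtb46, 7 members stayed below each group, as did 1.53% and 1.17% of all genes, and Tmem123 and Anxa3 overlapped.

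**Figure D3:**
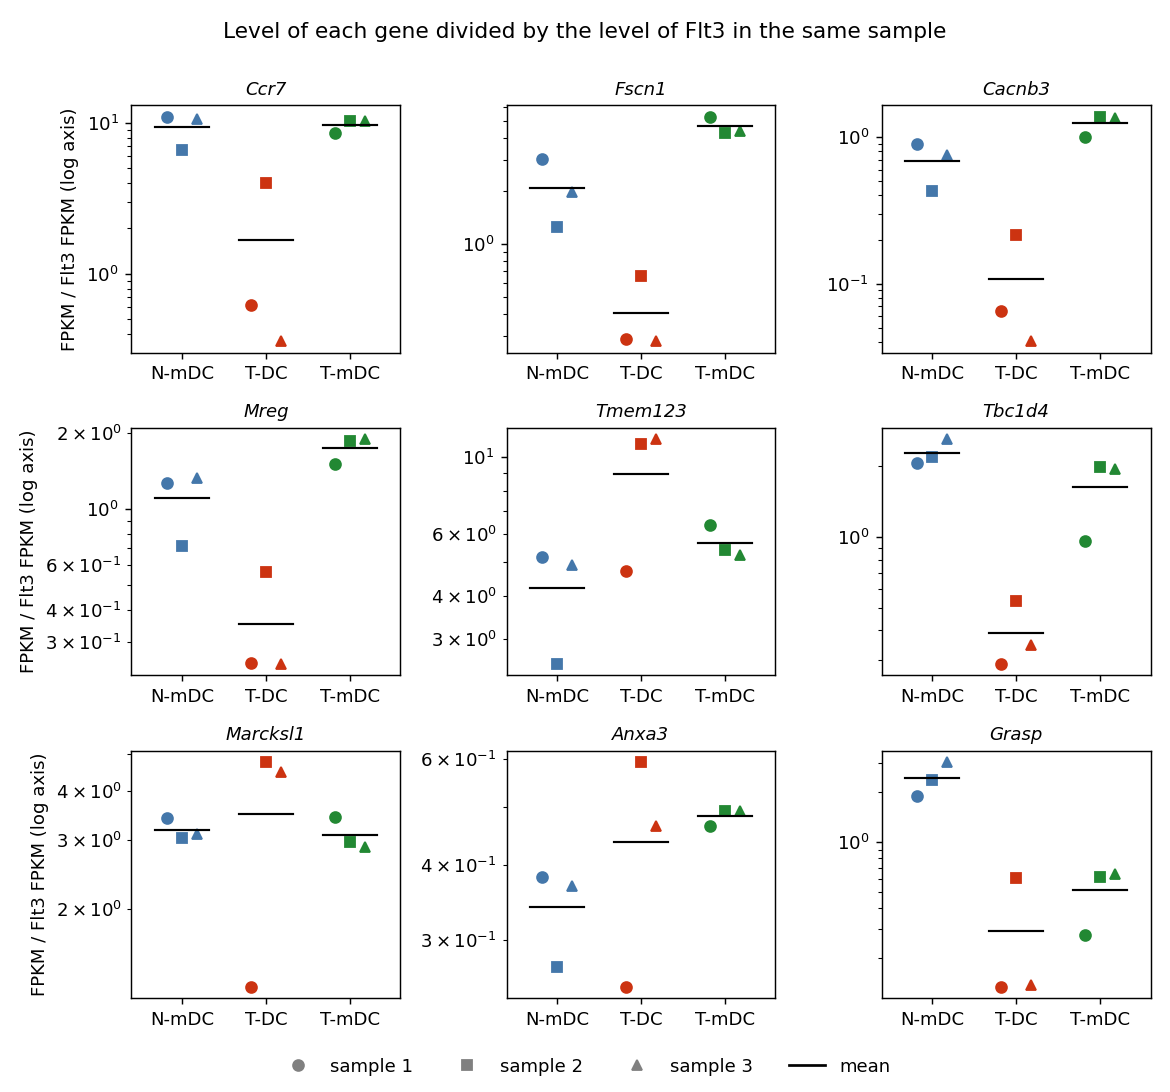
FPKM of each member divided by the FPKM of Flt3 in the same sample (log axis, each panel with its own range), where each marker is 1 sample and the bar is the mean of the group. T-DC samples stay below both other groups for Ccr7, Fscn1, Cacnb3, Mreg and Tbc1d4, and overlap with them for Tmem123, Marcksl1 and Anxa3.

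The plot of ratios to Flt3 separates 5 genes whose ratio was lower in T-DCs than in both other groups from 3 whose ratio overlapped with both, with Grasp between. RNA of other cells varied between the samples as well. The summed level of 10 erythroid markers was 614 to 58675 FPKM in T-DCs, 99.6 to 5364 in N-mDCs and 15.5 to 183 in T-mDCs. The sum of 8 neutrophil markers was 13.4 to 4236 FPKM in T-DCs, 64.1 to 708 in N-mDCs and 5.08 to 15.8 in T-mDCs. T-DC sample 1 was lowest among T-DCs in both sums, at 614 and 13.4 FPKM. Both sums of T-DCs overlapped with those of N-mDCs. Among the erythroid markers 3 of 10 rose in T-DCs against N-mDCs and 10 of 10 against T-mDCs (limma), where 6.10% and 5.44% of all genes rose. Among the neutrophil markers 0 of 8 rose against N-mDCs and 1 of 8 against T-mDCs, beside the same shares of all genes, and none fell. The part of these cells in the sizes of the differences was not tested. The sums of 10 T-lineage, 7 B-cell and 6 NK-cell markers were lower in each T-DC sample than in each N-mDC sample, with T-lineage markers at 14.4 to 38.8 FPKM in T-DCs and 122 to 135 in N-mDCs.

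Within the groups of mature DCs, the same sample was low for all members. N-mDC sample 2 was the lowest N-mDC sample for all 9 members, as it was for 40.5% of the genes tested. The order from sample 1 through sample 3 to sample 2 held for 8 members, with Grasp the exception, and for 20.9% of the genes. T-mDC sample 1 was the lowest T-mDC sample for all 9 members and for 48.2% of the genes. T-DC sample 3 was the lowest T-DC sample for 8 members, all but Marcksl1, and for 40% of the genes. Ccr7, Cacnb3 and Grasp were highest in T-DC sample 2, and 5 members (Fscn1, Mreg, Tmem123, Tbc1d4 and Anxa3) were highest in T-DC sample 1. N-mDC sample 2, low for every member, had the highest erythroid sum of its group, at 5364 FPKM, and so did T-mDC sample 1, at 183 FPKM. Each was also highest in its group for the sums of red pulp macrophage markers (3171 and 1288 FPKM), B-cell markers (309.5 and 196 FPKM) and plasmacytoid DC markers (539 and 116 FPKM). Each was lowest in its group for the sum of the 5 DC lineage markers, at 273 and 318 FPKM. In T-DCs, sample 2 had the highest erythroid sum, at 58675 FPKM, but was the lowest for no member and the highest for Ccr7, Cacnb3, Grasp and Marcksl1. The part of any of these cell types in the order of samples was not tested.

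**Figure D4:**
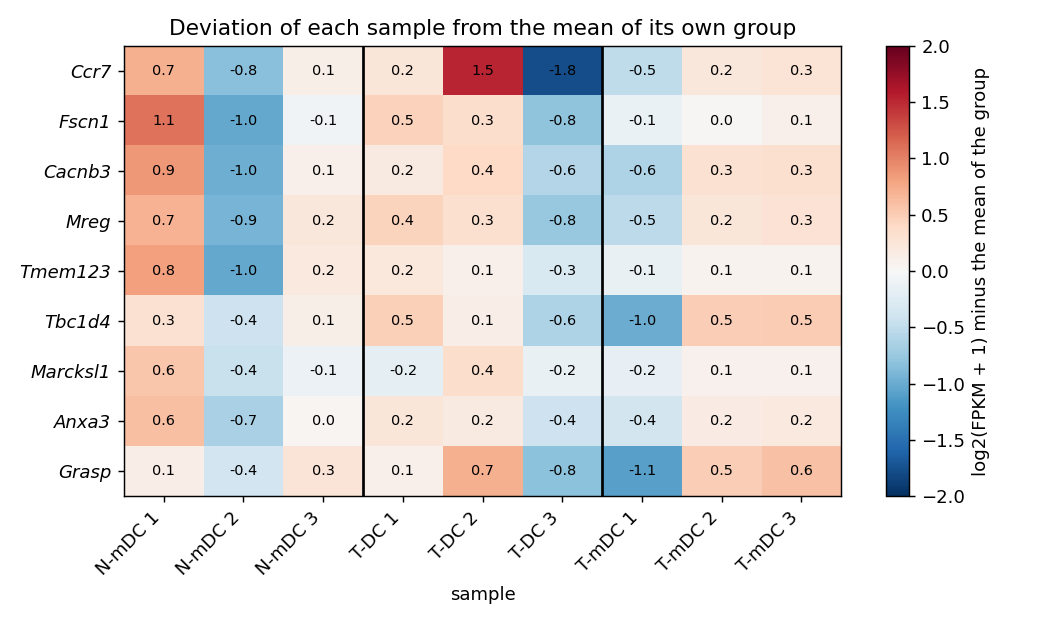
Deviation of each sample from the mean of its own group for the 9 members, in log2(FPKM + 1), with samples as columns, where red is above and blue below the group mean. N-mDC sample 2 and T-mDC sample 1 are below their group means for every member, and Ccr7 has the widest range in T-DCs, from 1.53 in sample 2 to -1.77 in sample 3.

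The plot of deviations within groups shows that the columns of N-mDC sample 2 and T-mDC sample 1 were of one sign for all genes. The spread within N-mDCs was widest for Fscn1, whose highest sample was 4.37 times the lowest, and least for Grasp, at 1.58 times. Within T-mDCs the widest spread was that of Grasp, at 3.29 times, and the least that of Tmem123, at 1.17 times.

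A list of 45 other genes of mature migratory DCs was counted beside the members. It was written with earlier results of these samples known and is not independent evidence of its direction. Of the 45 genes, 43 were tested, all but Ccl17 and Il4i1. Of these, 29 fell and none rose in T-DCs against N-mDCs (limma, adjusted p under 0.05), where 10.3% of all genes fell and 6.10% rose. Against T-mDCs 34 fell and none rose, where 8.79% of all genes fell and 5.44% rose. The median log2 fold change of the list was -1.96 and -2.25. A gene of the list that was below 1 FPKM in every T-DC sample could be tested only because it was higher in mature DCs, which was so for 10 of the 43. In all, 17 of the 43, those 10 included, were below 1 FPKM in at least 1 T-DC sample. They needed at least 1 mature DC sample to pass the filter. Apol7c, H2-M2 and Cd40 are among the 17, so their calls are not free of the filter. Of the 33 genes outside the 10, 19 fell against N-mDCs and 24 against T-mDCs, but these 33 still hold the rest of the 17.

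Apol7c, an apolipoprotein L gene of mature DCs, had the largest decreases of the list. It was at 315, 90.1 and 124 FPKM in N-mDC samples 1 to 3, at 1.84, 1.72 and 0.0959 FPKM in T-DC samples 1 to 3 and at 59.4, 84.8 and 88.6 FPKM in T-mDC samples 1 to 3. It fell by 6.23 (SE 0.51, limma adjusted p = 0.00054) and by 5.25 (SE 0.51, limma adjusted p = 0.00143) on the log2 scale. Next against N-mDCs came H2-M2, a nonclassical MHC class I gene, and Cd83, the maturation marker that stabilises MHCII at the surface. H2-M2 fell by 4.76 (limma adjusted p = 0.0015) and Cd83 fell by 4.71 (limma adjusted p = 0.000798), from 608 to 1013 FPKM in N-mDCs to 13.01 to 48.4 FPKM in T-DCs. Cxcl16, a membrane-bound chemokine, fell by 3.33 (limma adjusted p = 0.00278). Ccl22, a chemokine that draws regulatory T cells, differed by -3.85, but it is among the 10 genes that passed the filter only through the mature DCs and had to differ. Against T-mDCs, Il12b, a subunit of interleukin 12, fell by 4.29 (limma adjusted p = 0.00455), from 123 to 126 FPKM to 1.67 to 12.3 FPKM. Against N-mDCs its difference was -2.10 (limma adjusted p = 0.0571). Cxcl16 fell by 4.10 against T-mDCs, Icosl, the ligand of the T-cell costimulator ICOS, fell by 3.995, and Zmynd15, also among those 10 genes, differed by -3.74. Of the costimulatory genes, Cd40 and Cd80 fell in both comparisons, while Cd86 differed by -1.34 and -1.35 (limma adjusted p = 0.0762 and 0.0841).

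Between T-mDCs and N-mDCs, 1 gene of the list rose and none fell, where 0.69% of all genes rose and 1.52% fell. It was Fabp5, a fatty acid carrier, at 53.3, 46.4 and 45.6 FPKM in T-mDC samples 1 to 3 against 27.5, 13.9 and 12.7 FPKM in N-mDC samples 1 to 3, and its call was kept under 7 of 22 alternative settings and lost, among others, without any 1 of N-mDC samples 2 and 3, T-DC samples 2 and 3 or the T-mDC samples. Genes of the list that rose numbered 4 without T-DC sample 1 and 3 without N-mDC sample 1. At an unadjusted p under 0.05 there were 13 of the 43, where 16.7% of all genes were under it. With the erythroid level of each sample as a covariate, 16 genes of the list fell against N-mDCs and none fell against T-mDCs, a fit in which none of the 12746 genes passed in the latter comparison.

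**Figure D5:**
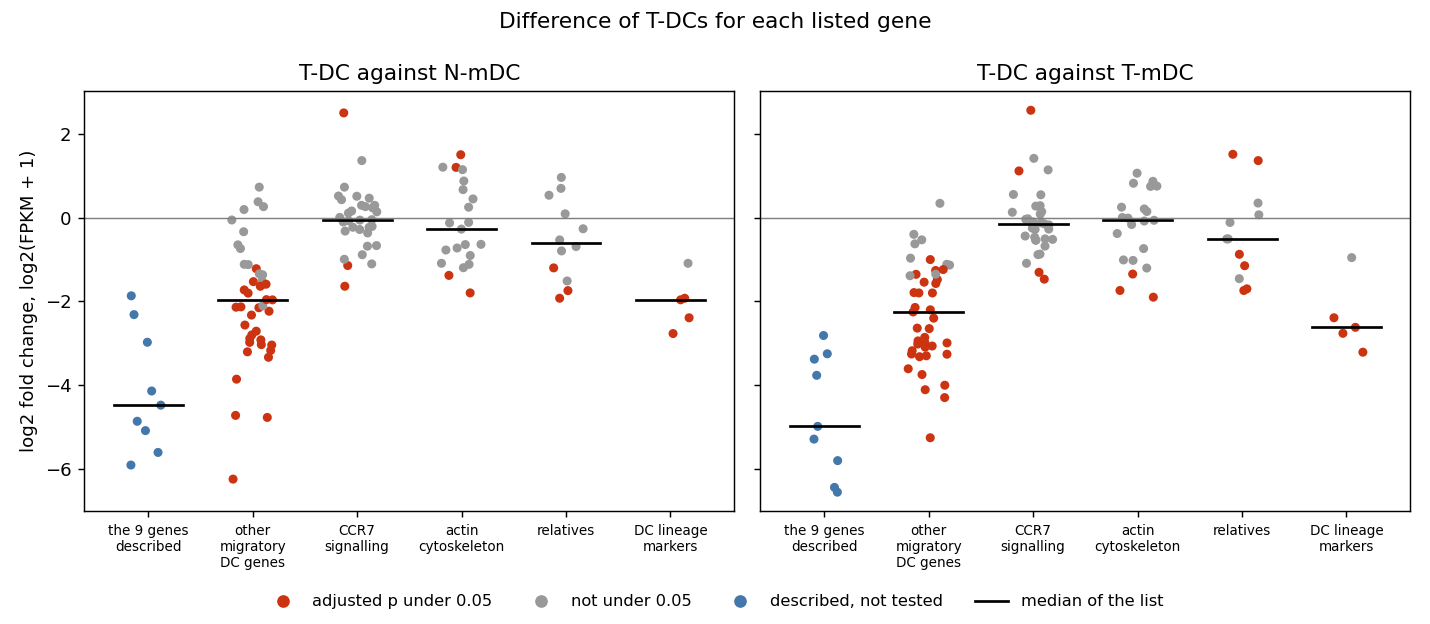
Log2 fold change of T-DCs against N-mDCs (left) and T-mDCs (right) on the log2(FPKM + 1) scale for the 9 members and 5 lists of genes, where each point is 1 gene, the bar is the median of the list red marks a limma adjusted p under 0.05, grey any other tested gene and blue the members, which were not tested. The other migratory genes lie mostly below 0, with medians of -1.96 and -2.25, while the genes of CCR7 signalling and of the actin cytoskeleton lie around 0.

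The plot of fold changes by list sets the members beside the machinery they work with. Of 32 tested genes that carry the signal of CCR7, 1 rose and 2 fell against N-mDCs, where 16.4% of all genes passed in either direction. Against T-mDCs 2 rose and 2 fell, where 14.2% of all genes passed. Arrb1, an arrestin that desensitises receptors, was at 26.1, 81.1 and 67.6 FPKM in T-DC samples 1 to 3, 7.98 to 8.92 FPKM in N-mDCs and 6.996 to 10.4 FPKM in T-mDCs. It rose by 2.49 (SE 0.38, limma adjusted p = 0.00446) and by 2.55 (SE 0.38, limma adjusted p = 0.00438), and its highest levels were in the T-DC samples with the highest erythroid sums, whose part in the result was not tested. Plcb2, a phospholipase C, fell against N-mDCs by 1.64 (SE 0.32, limma adjusted p = 0.0118). Gng2, a G protein gamma subunit, fell by 1.14 (limma adjusted p = 0.0482) and by 1.47 (limma adjusted p = 0.0224). Against T-mDCs, Grk6, a receptor kinase, rose by 1.11 (limma adjusted p = 0.0214) and St8sia4, which adds the polysialic acid that CCR7 carries, fell by 1.31 (limma adjusted p = 0.0374). The call of Gng2 against N-mDCs was kept under 8 of 22 alternative settings and that of St8sia4 under 10. Without T-DC sample 1, the genes of this list that fell numbered 9 and 11, and without any 1 of the other samples they numbered 1 and 0 to 3. Gnai2, the inhibitory G protein subunit of chemokine receptors, was at 201 to 309.5 FPKM in T-DCs, against 189 to 218 FPKM in N-mDCs and 214 to 247 FPKM in T-mDCs.

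Of the members' relatives, some fell and some rose. Of 16 listed, 12 were tested, and 3 fell and none rose against N-mDCs, while 4 fell and 2 rose against T-mDCs. Of all genes, 10.3% fell and 6.10% rose in the former comparison and 8.79% fell and 5.44% rose in the latter. The other fascins, Fscn2 and Fscn3, and the calcium channel subunits Cacnb2 and Cacnb4 were at most 0.336 FPKM in every sample. Cacnb1, the relative of Cacnb3 that was tested, fell by 1.2 (limma adjusted p = 0.0147) and by 0.88 (limma adjusted p = 0.0483), the latter kept under 6 of 21 alternative settings. Marcks, the relative of Marcksl1, had differences of -1.51 and -1.46 (limma adjusted p = 0.0546 and 0.0665). Cytip, the relative of Grasp that regulates DC adhesion, fell by 1.74 against N-mDCs (limma adjusted p = 0.0156). Tbc1d1, the relative of Tbc1d4, fell by 1.15 against T-mDCs (limma adjusted p = 0.0398), while Tbc1d2b rose by 1.51 (limma adjusted p = 0.0422). These calls were kept under 10 and 8 of 22 alternative settings. Among the annexins, Anxa6 fell by 1.92 (limma adjusted p = 0.0125) and by 1.70 (limma adjusted p = 0.0219). Anxa4 fell by 1.74 (limma adjusted p = 0.0214) and Anxa1 rose by 1.36 (limma adjusted p = 0.0222) against T-mDCs.

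Of 21 tested genes of the actin cytoskeleton, 2 rose and 2 fell against N-mDCs, and none rose and 3 fell against T-mDCs, shares near the 16.4% and 14.2% of all genes that passed. Actn4 and Vcl, which anchor actin filaments at adhesion sites, rose against N-mDCs by 1.19 (limma adjusted p = 0.0091) and 1.496 (limma adjusted p = 0.0162). Lsp1, an actin-binding protein of leukocytes, fell by 1.38 (limma adjusted p = 0.0299) and by 1.35 (limma adjusted p = 0.0347), calls kept under 9 and 11 of 22 alternative settings. Tmsb10, which binds actin monomers, fell by 1.80 (limma adjusted p = 0.0167) and by 1.74 (limma adjusted p = 0.0209), and Actn1 fell by 1.90 against T-mDCs (limma adjusted p = 0.0278). Without T-DC sample 1, the genes that fell numbered 9 and 7 here and 7 and 6 among the members' relatives, and without any 1 of the other samples 0 to 3 and 0 to 3 here, and 1 to 3 and 0 to 3 among the relatives. With the erythroid covariate, each of the calls given for these 3 lists was lost but that of Arrb1 against N-mDCs.

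The genes whose levels most resembled those of Ccr7 were ranked by Pearson's r of log2(FPKM + 1) over the 9 samples, with the members set aside. Samples of the same group share much of this, so r is a description of the pattern across groups as well as samples. The first 10 of 12745 genes were Traf1, Slamf7, H2-Eb2, Slain1, Tes, Spib, Tmem176b, Abcb1b, Il21r and Adam8, with r from 0.994 down to 0.986. H2-Eb2 is an MHC class II gene and T-DCs were gated on low surface MHCII, so nothing is read from its place. When any 1 sample was left out, r of these 10 genes stayed at 0.977 or above. The 10 were picked for a high r in these same samples and were not picked again, so this does not test the list. Traf1, a signalling adaptor of TNF receptors that also stands on the list of migratory genes, was at 74.6, 37.6 and 52.6 FPKM in N-mDC samples 1 to 3, 7.39, 7.68 and 2.88 FPKM in T-DC samples 1 to 3 and 48.2, 69.4 and 69.4 FPKM in T-mDC samples 1 to 3. In the same order Mreg ranked 25, Marcksl1 26, Cacnb3 30, Tbc1d4 41, Fscn1 45, Anxa3 74, Tmem123 287 and Grasp 416. With the group means removed, r with Ccr7 was 0.83 for Mreg, 0.80 for both Cacnb3 and Grasp, 0.79 for Fscn1, 0.77 for Anxa3, 0.71 for Marcksl1, 0.66 for Tbc1d4 and 0.62 for Tmem123. By this r the members ranked from 110 (Mreg) to 963 (Tmem123) of 12745 genes, so many other genes were as close to Ccr7 within groups. Grasp, last of the members over all samples, ranked 159 and was thus among the members closest to Ccr7 within groups.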

How the data were processed

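Bulk RNA-seq of 9 samples (N-mDC, T-DC and T-mDC, 3 each) was analysed. The authors deposited FPKM per gene, on genome build mm10 per the submitters' processing notes. The aligner, counter and annotation are not given in the sources used here. FPKM times gene length gave whole reads for 100% of values, to within 0.01 read. Groups were taken from the titles. Values were analysed as log2(FPKM + 1) with limma 3.58.1 in R 4.3.3 (1 fit of all samples, group as the only term, eBayes with trend), Benjamini-Hochberg adjusted over the 12746 genes with at least 1 FPKM in at least 3 samples, at a threshold of 0.05. Adding 1 understates the change of low genes. The procedure was tested on simulated data. Gene positions were those of the deposited values, and 98.3% of the 54409 genes found in GENCODE M21 had the same start and end. The members and lists were chosen with earlier results of these data known. Named genes were the members, the 5 largest called changes per list and direction in a T-DC contrast, ligands and closest relatives, and the 10 genes most correlated with Ccr7. Cd40, Cd80, Cd86 and Gnai2 were added for their roles after their values were seen. Other marker lists (cDC1, cDC2, red pulp macrophage, monocyte, pDC) were summed as given in the closing section. The 22 alternatives were another pseudocount, other filters and scalings, TPM, voom on whole reads, sample weights, no trend, only the groups compared, a replicate block, T-mDC samples 2 and 3 averaged, an erythroid covariate and leaving out each sample. Deviations of same-numbered samples had correlations from -0.475 to 0.269. With 3 samples per group these cannot decide whether numbers pair samples, and the labels give no pairing. The labels name no separate mice, so p-values measure the spread between these samples, which may be technical.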

Additional observations from a re-analysis of the deposited data

How the results depend on the processing

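The T-DC differences of the 9 members stayed below 0 under all 22 alternatives, but 25 of the 396 values moved by more than the spread between replicates. With the erythroid covariate the difference from T-mDCs went from -6.54 to -5.17 for Fscn1, from -5.79 to -4.65 for Cacnb3, from -5.28 to -3.94 for Mreg, from -3.25 to -2.35 for Anxa3 and from -2.81 to -1.80 for Tmem123, and that of Tmem123 from N-mDCs went from -1.87 to -1.16. With voom Cacnb3 differed from T-mDCs by -7.36, and with sample weights Ccr7 differed from N-mDCs by -4.74 and from T-mDCs by -5.12. Members passing the test between T-mDCs and N-mDCs numbered 0 in 21 alternatives and 5 with sample weights. Tbc1d4, at -0.10 in that comparison, turned to 0.12 with TPM, 0.12 with quantile normalization and 0.14 with sample weights, and leaving out 1 sample gave -0.35 to 0.40. Other migratory genes that fell numbered 29 and 34 (against N-mDCs and T-mDCs), and 16 and 0 with the erythroid covariate, where the cause was not tested. They numbered 24 to 35 and 23 to 40 with 1 sample left out. With the replicate block, for which the labels give no pairing, the other migratory genes that fell numbered 26 and 29, and no member passed. In that fit calls over all genes were 1378 (T-DC against N-mDC), 1253 (T-DC against T-mDC) and 78 (T-mDC against N-mDC). In the main fit they were 2096, 1813 and 282. All-gene calls were 8485, 9923 and 3841 with sample weights, 484, 0 and 287 with the erythroid covariate, 1394, 540 and 23 with T-mDC samples 2 and 3 averaged, 1070, 1036 and 850 with only the groups compared, and 5030, 4475 and 1022 without T-DC sample 1. Over the other samples left out they were 980 to 1866, 541 to 1824 and 23 to 299. T-mDC against N-mDC calls were also 107 with a pseudocount of 0.1, 111 with the stricter filter, 99 with TPM and 173 with voom. T-DC against N-mDC calls were 1449 with the stricter filter, and T-DC against T-mDC calls were 1190. TPM moved the median of all genes from 0.07 to -0.23 in T-DC against T-mDC and from 0.03 to 0.23 in T-mDC against N-mDC, where it made 49 higher and 50 lower calls instead of 88 and 194. In T-DC against T-mDC it made 376 higher and 1339 lower instead of 693 and 1120. At 11 reads for Cacnb3 and 19 for Grasp in T-DC sample 3, depth limits those levels.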

Other observations

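Other DC and myeloid markers differed in how far they moved beside the members. The summed level of 6 cDC1 markers was 21.8 to 100.3 FPKM in T-DCs, against 205 to 299 FPKM in N-mDCs and 268 to 433 FPKM in T-mDCs. Of the 6, 5 fell in T-DCs against N-mDCs (limma, median log2 fold change -2.17), where 10.3% of all genes fell. All 6 fell in T-DCs against T-mDCs (limma, median -2.80), where 8.79% of all genes fell. The sum of 6 cDC2 markers was 115 to 441 FPKM in T-DCs, against 373 to 407 FPKM in N-mDCs and 222 to 305 FPKM in T-mDCs, so that T-DC sample 1, at 441 FPKM, was the highest of the 9 samples. Gene by gene, 4 of the 6 fell in T-DCs against N-mDCs and none rose (limma, median log2 fold change -1.39). Against T-mDCs 3 fell and 1 rose (median -1.30). Of all genes, 10.3% fell and 6.10% rose in the former comparison, and 8.79% fell and 5.44% rose in the latter. The sum of 7 monocyte markers was 462 to 869.9 FPKM in T-DCs, against 240.3 to 495 FPKM in N-mDCs and 73.4 to 245 FPKM in T-mDCs. Gene by gene, 2 of the 7 fell in T-DCs against N-mDCs and none rose (limma, median log2 fold change -0.59), where 10.3% and 6.10% of all genes did. Against T-mDCs 1 rose and none fell (median 1.72), where 5.44% and 8.79% of all genes did. The sum of 8 red pulp macrophage markers was 522 to 2763 FPKM in T-DCs, against 1682 to 3171 FPKM in N-mDCs and 326 to 1288 FPKM in T-mDCs. None of the 8 passed in either T-DC comparison (limma), where 16.4% and 14.2% of all genes did. The sum of 6 pDC markers was 121 to 198 FPKM in T-DCs, against 227 to 539 FPKM in N-mDCs and 59.8 to 116 FPKM in T-mDCs. Of the 6, 2 fell and none rose in T-DCs against N-mDCs (limma), where 10.3% of all genes fell. None passed against T-mDCs, where 14.2% of all genes did. B-cell markers summed to 32.4 to 102 FPKM in T-DCs, against 231 to 309.5 FPKM in N-mDCs and 54.04 to 196 FPKM in T-mDCs. NK-cell markers summed to 0.900 to 14.1 FPKM in T-DCs, against 36.5 to 113 FPKM in N-mDCs and 0.801 to 2.64 FPKM in T-mDCs. All 6 fell against N-mDCs both in T-DCs and in T-mDCs (limma), where 10.3% and 1.52% of all genes fell. T-lineage markers summed to 64.2 to 114 FPKM in T-mDCs.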
